A study of Mus musculus with 28 samples.

Results

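Tgfb1 and Vegfa are 2 of the 72 targets of a NanoString nCounter panel chosen as its growth factors of tissue repair. Both had a value in all 28 samples, as did 58 targets in all. The samples were monocytes, or cells derived from them, of C57BL/6 mice in 6 groups. Trem1-/- donor cells came from the inflamed small intestine of 7 recipients and from the control small intestine of 5, and WT donor cells from 5 inflamed and 5 control intestines. All recipients were C57BL/6 CCR2-/- mice, so control and inflamed hosts alike lacked CCR2. Inflammation was induced by surgical manipulation of the intestine 1 day before the transfer, and control recipients had no operation. The donor-derived cells were sorted at day 1 after the transfer, 100 from each recipient. Primary bone marrow monocytes of 3 Trem1-/- and 3 WT mice were never transferred. How many marrow cells went into a sample is not given in the sources used here.

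Tgfb1 encodes transforming growth factor beta 1, a cytokine that is made as a latent precursor, is released from it outside the cell, and signals through serine/threonine kinase receptors to SMAD transcription factors. In the intestine it is known for restraining immune responses and for driving matrix deposition during repair. Vegfa encodes vascular endothelial growth factor A, which binds receptor tyrosine kinases on endothelial cells, drives the growth and permeability of vessels, and is induced by hypoxia. Monocytes and macrophages are known sources of both.

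The Tgfb1 probe pair read positions 1471 to 1570 of transcript NM_011577.1, and the Vegfa pair positions 1831 to 1930 of NM_009505.4. In the RefSeq table of mouse build GRCm38.p6, Tgfb1 lies at chr7:25687002-25705077 on the plus strand with 1 transcript listed, and Vegfa at chr17:46016993-46032377 on the minus strand with 10. Each pair covers 100 bases, so a change of transcript form at Vegfa outside that stretch would not be read. The RefSeq sequences of the 250 bases before each gene's start are shown to set the upstream sequences of the 2 genes side by side. They lie at chr7:25686752-25687001 for Tgfb1 and chr17:46032378-46032627 for Vegfa. Each is written 5′ to 3′ on the gene's strand, with every GC box (GGGCGG, on either strand) in capitals.
Tgfb1: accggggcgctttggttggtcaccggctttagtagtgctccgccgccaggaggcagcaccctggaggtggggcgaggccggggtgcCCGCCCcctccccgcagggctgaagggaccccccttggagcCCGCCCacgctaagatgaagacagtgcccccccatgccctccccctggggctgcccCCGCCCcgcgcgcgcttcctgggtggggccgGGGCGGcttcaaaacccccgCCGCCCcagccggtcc
Vegfa: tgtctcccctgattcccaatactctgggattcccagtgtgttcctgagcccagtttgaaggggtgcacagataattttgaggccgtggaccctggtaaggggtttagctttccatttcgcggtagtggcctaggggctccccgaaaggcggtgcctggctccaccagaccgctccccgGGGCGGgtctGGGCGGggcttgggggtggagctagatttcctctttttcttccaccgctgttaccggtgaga
The Tgfb1 window held 5 GC boxes and the Vegfa window 2, against at least 1 in 32.7% of 32851 windows of the same length. GC content was 75.2% before Tgfb1 and 59.2% before Vegfa, where the median window had 52.4%. Neither window held ACGTG, a core of the hypoxia response element (16.6% of windows), TATAAA (12.4%) or the AP-1 letters TGACTCA (4.46%). All were searched on both strands. Only these letters within 250 bases were searched, so a site farther off or with other letters would be missed.

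Levels are normalised counts: barcode counts scaled by 3 housekeeping genes (Actb, Gapdh and Rpl19, as their geometric mean). Total gene counts ran from 720570 to 1625959 per sample. Background, the mean of a sample's negative control probes plus 2 SD, ran from 16.7 to 59.0 counts. Because cDNA was amplified before counting, levels do not count original molecules and cannot be compared between the 2 genes. Trem1 was blank in every Trem1-/- and marrow sample, which leaves the genotypes of donors unchecked at that gene. All 5 measured monocyte markers of 7 listed lay above background in every sample. WT marrow mouse 1 stood apart in Rpl19, with 8101 normalised counts against 2738 and 3270 in the other WT marrow mice.

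**Figure D1:**
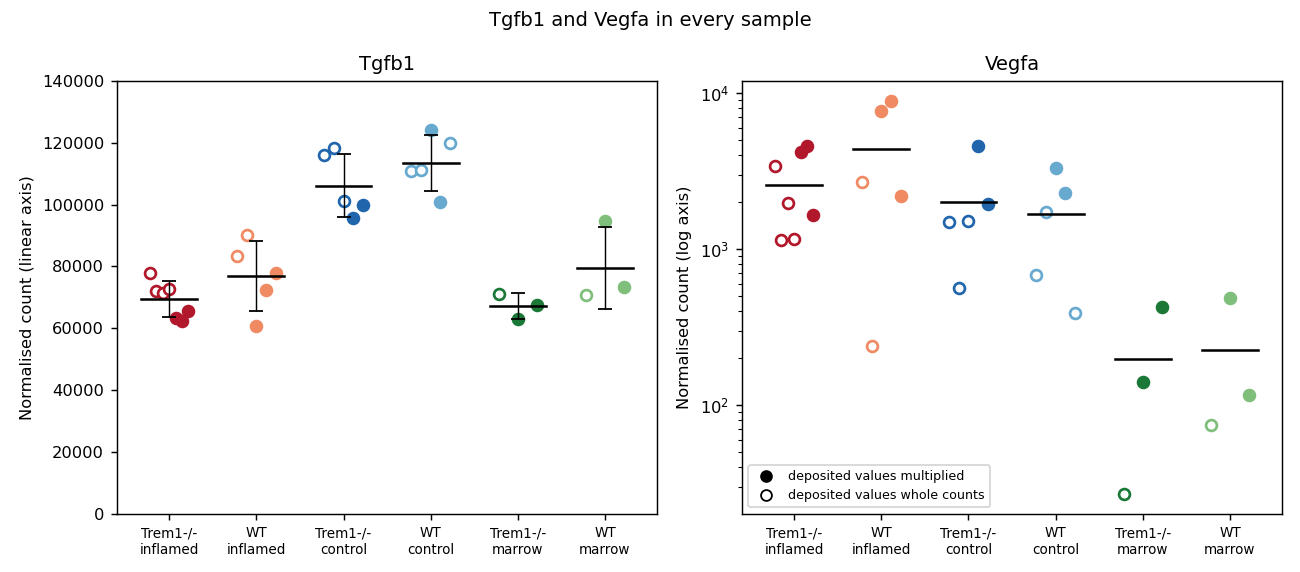
Normalised counts of Tgfb1 (linear axis) and Vegfa (log axis) in the 28 samples by group, with 1 point per mouse (filled where deposited values had been multiplied), a line at the group mean and, for Tgfb1, bars of 1 SD. Tgfb1 in inflamed intestine stayed at or below 90264 and in control intestine at or above 95544, whereas Vegfa groups overlapped in the intestine and marrow was low.

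Tgfb1 fell in cells from the inflamed intestine, relative to control intestine, in both donor genotypes. In Trem1-/- inflamed cells it ran from 62201 to 78044 normalised counts with a median of 71521 (n = 7), against 95544, 99865, 101093, 115955 and 118276 in Trem1-/- control cells. Every inflamed sample lay below every control sample. The means were 69330 ± 5814 and 106147 ± 10256 (SD, n = 7 and 5). The inflamed level was 0.653 times the control level (log2 fold change -0.61, SE 0.14, edgeR adjusted p = 0.00133), with a 95% interval of 0.532 to 0.801 times. For cells of WT donors, the 5 inflamed samples had 60749, 72388, 77813, 83487 and 90264 normalised counts, against 100867, 110944, 111061, 119961 and 124238 in the 5 controls. These groups did not overlap either, with means of 76940 ± 11225 in inflamed and 113414 ± 9071 in control cells (SD, n = 5 each). The ratio was 0.678 (log2 fold change -0.56, SE 0.16, edgeR adjusted p = 0.00527), with a 95% interval of 0.542 to 0.848. The background of such calls was wide: 49.1% of 55 genes passed the threshold of 0.05 in Trem1-/- cells and 47.3% in WT cells, and 30.9% and 34.5% had groups without overlap. In rank, Tgfb1 had the 18th lowest change of the 55 genes in Trem1-/- cells and the 17th lowest in WT cells. Exact two-sided permutation tests of mean log2 levels gave p = 0.00126 for Trem1-/- and 0.0079 for WT cells, the smallest values that their sample numbers allow. Adjusted over the 18 such tests of both genes, these were 0.0227 and 0.05, the second not under the threshold.

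How far Tgfb1 was lower, and whether it was called, depended on the housekeeping gene it was set against. The 3 housekeeping genes are scaled here by their own geometric mean, so a lower level of 1 forces a higher level in another. Which of them changed cannot be told from these levels. On this scale Actb, a cytoskeletal gene, was lower in inflamed cells, at 113847 ± 5062 against 163095 ± 15540 normalised counts in Trem1-/- cells. In WT cells it had 125029 ± 5951 against 169217 ± 15390. Rpl19, a ribosomal protein gene, was higher, at 3517 ± 214 against 2634 ± 429 in Trem1-/- cells and 3929 ± 308 against 2826 ± 293 in WT cells. Gapdh, a glycolytic enzyme gene, had 113378 ± 3828 against 107280 ± 9299 in Trem1-/- cells and 92515 ± 3604 against 95585 ± 6117 in WT cells. Within each sample, the log2 ratio of Tgfb1 to Rpl19 was lower in inflamed cells by a mean of -1.05 in each genotype, and the ratio to Gapdh by -0.70 in Trem1-/- and -0.52 in WT cells, all without overlap. Its ratio to Actb differed by -0.099 in Trem1-/- and -0.14 in WT cells, and those groups overlapped.

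With Actb as the only scaling gene, the edgeR log2 fold change was -0.096 (adjusted p = 0.51) in Trem1-/- and -0.13 (adjusted p = 0.478) in WT cells, and both calls ended. Both also ended with positive-control scaling, at -0.031 and -0.23, and in the authors' normalised table, where the direction turned in Trem1-/- cells at 0.27 and WT cells had -0.0093. In WT cells alone the call was also lost with DESeq2 size factors (-0.67, adjusted p = 0.0704) and with Actb and Gapdh without Rpl19 (-0.32, adjusted p = 0.0606). With the trimmed mean of M values (TMM), the changes were -1.01 and -1.09 and both passed. Scalings moved the median of all 55 genes by -0.43 to 0.91 in Trem1-/- and by -0.47 to 0.58 in WT cells. Relative to that median, Tgfb1 lay between -0.76 and -0.58 in Trem1-/- and between -0.54 and -0.47 in WT cells under the 12 scalings run. A change of scaling moves all genes by about the same amount, so these narrow ranges were set in advance. They do not show that the fall holds under each scaling. The median is also that of a chosen panel, of which 49.1% of genes passed in Trem1-/- and 47.3% in WT cells. As a share of all gene counts, housekeeping genes included, Tgfb1 made up a mean of 4.81% in Trem1-/- inflamed against 9.49% in Trem1-/- control cells. In WT cells the share was 4.92% in inflamed against 8.31% in control cells. Such a share also moves when other genes of the panel rise or fall.

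**Figure D2:**
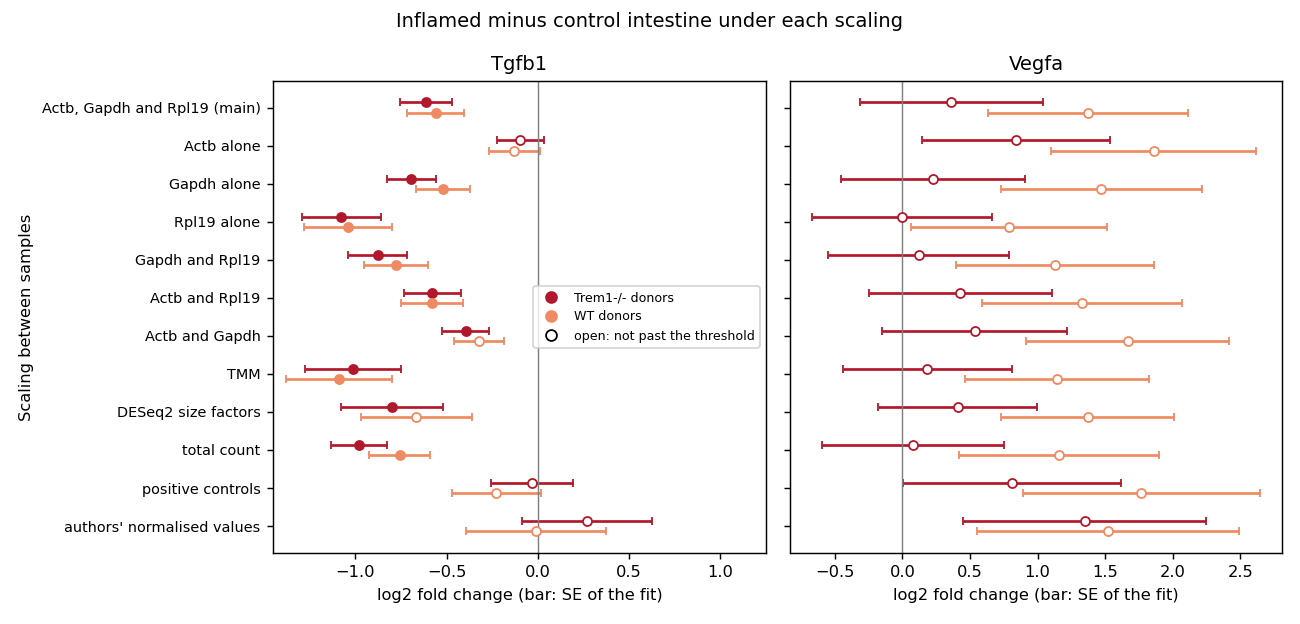
Log2 fold change of inflamed over control intestine for Tgfb1 and Vegfa (points, bars are the SE of the fit) under each scaling, by donor genotype, filled where the adjusted p passed 0.05. Tgfb1 was called in neither genotype with Actb alone, positive controls or the authors' values (open points), and no scaling called Vegfa.

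Between inflamed and control intestine, markers of dendritic cells moved with Tgfb1. Of 4 measured of 6 listed (Itgax, Ccr7, Irf4 and H2-Ab1), 4 passed as lower in inflamed cells for Trem1-/- donors. For WT donors 3 did, all but Ccr7. Of all 55 genes, 49.1% in Trem1-/- and 47.3% in WT cells passed in either direction. Their summed level ran from 11151 to 39020 normalised counts in Trem1-/- inflamed, against 64810 to 148002 in Trem1-/- controls. In cells of WT donors it ran from 5189 to 71354 when inflamed, against 101213 to 165233 in controls. In marrow it was 1761 to 5516 for Trem1-/- and 3299 to 21216 for WT mice. Against marrow, Itgax and H2-Ab1 passed as higher in inflamed cells of both genotypes, and none passed as lower. There 58.2% of all 55 genes passed in Trem1-/- and 49.1% in WT cells. Monocyte markers moved as well. Of the 5 measured, Ccr2, Csf1r and Spi1 were lower and Cd14 was higher in Trem1-/- inflamed cells, and Ccr2 and Csf1r were lower and Cd14 was higher in WT inflamed cells. Their summed level ran from 164377 to 188878 normalised counts in Trem1-/- inflamed, against 202754 to 247667 in Trem1-/- controls, and from 229516 to 300579 in WT inflamed, against 256556 to 346209 in WT controls. Of 4 measured macrophage markers of 6 listed (Cx3cr1, Adgre1, Mrc1 and Cd68), Cx3cr1 was lower in both genotypes and Mrc1 was higher in Trem1-/- cells. Their sum ran from 6899 to 28239 in Trem1-/- inflamed, against 3257 to 30824 in Trem1-/- controls, and from 2152 to 22073 in WT inflamed, against 6105 to 23527 in WT controls. The part of these markers in the Tgfb1 result was not tested. In such pooled cells, fewer cells of a type and less RNA per cell cannot be told apart.

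Vegfa did not pass between inflamed and control intestine in either genotype, and its spread between mice was wide. Trem1-/- inflamed cells ran from 1150 to 4540 normalised counts with a median of 1962 (n = 7), against 560, 1483, 1520, 1938 and 4536 in Trem1-/- control cells. These groups overlapped, with 1 inflamed sample above every control. Their means were 2583 ± 1442 and 2007 ± 1501 (SD, n = 7 and 5), for a ratio of 1.29 (log2 fold change 0.36, SE 0.68, edgeR adjusted p = 0.721) and a 95% interval of 0.485 to 3.41. In WT inflamed cells Vegfa had 238, 2189, 2706, 7708 and 8913 normalised counts, against 392, 681, 1715, 2280 and 3311 in WT controls. The inflamed samples held both the highest pair and the lowest value of these 10. The means were 4351 ± 3754 and 1676 ± 1192 (SD, n = 5 each), for a ratio of 2.60 (log2 fold change 1.38, SE 0.74, edgeR adjusted p = 0.131) and a 95% interval of 0.896 to 7.52. Without WT inflamed mouse 2, the sample at 238, the fold change was 1.68 and passed (adjusted p = 0.0412). It did not pass in the other 9 fits that left out 1 mouse, nor in 21 other alternatives (adjusted p = 0.0504 to 0.608).

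With the 3-gene scaling, Trem1 deletion made no difference that passed for either gene in inflamed intestine, control intestine or marrow. Between inflamed cells, where 32.7% of 55 genes passed, Tgfb1 in Trem1-/- was 0.901 times its level in WT (log2 fold change -0.15, SE 0.14, edgeR adjusted p = 0.425, 95% interval 0.733 to 1.11). Vegfa was 0.594 times (log2 fold change -0.75, SE 0.67, adjusted p = 0.405, interval 0.228 to 1.55). Between control cells, where 3.64% of genes passed, Tgfb1 was 0.936 times its WT level (adjusted p = 0.757, interval 0.749 to 1.17). Vegfa was 1.20 times (adjusted p = 0.851, interval 0.421 to 3.41). All of these groups overlapped, where 20% of genes did not overlap between inflamed and 7.27% between control cells. For Tgfb1 the intervals of both settings span 0.733 to 1.17 times; for Vegfa they span 0.228 to 3.41 times. These intervals hold for the 3-gene scaling. Between inflamed cells, Tgfb1 had a log2 fold change of 0.48 with TMM (adjusted p = 0.196), and it was called lower in Trem1-/- with Gapdh alone (-0.44, adjusted p = 0.0117) and with positive-control scaling.

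In marrow, 0 of 54 genes passed between genotypes in edgeR (0%), with 3 at an unadjusted p under 0.05, 2 passing in DESeq2 and 0 in limma, and 7.41% had groups without overlap. Tgfb1 had 62908, 67379 and 71247 normalised counts in Trem1-/- mice, against 70667, 73231 and 94862 in WT mice, so 2 of 3 Trem1-/- samples lay below every WT sample. The ratio was 0.844 (adjusted p = 0.843, 95% interval 0.552 to 1.29). Vegfa had 26.9, 140 and 425 normalised counts in Trem1-/- mice and 74.6, 116 and 484 in WT mice, with a ratio of 0.877 (adjusted p = 0.951, interval 0.181 to 4.25). With 3 mice against 3, an exact permutation test cannot go below p = 0.1. The labels name no pairs among the marrow mice. With the mouse number as a block, the fit gave -0.23 for Tgfb1 and -0.57 for Vegfa, neither passing.

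The response to inflammation was also set between genotypes directly. This interaction, the Trem1-/- change minus the WT change, was -0.055 for Tgfb1 (SE 0.21, edgeR adjusted p = 0.896) and -1.01 for Vegfa (SE 0.99, adjusted p = 0.622), where 3.64% of genes passed. In fold terms the intervals were 0.711 to 1.30 for Tgfb1 and 0.12 to 2.05 for Vegfa. Positive-control counts, which measure the assay and not the cells, did not overlap between genotypes in the intestine, at 766 to 1783 in Trem1-/- and 247 to 729 in WT samples. With scaling by them, Tgfb1 was called lower in Trem1-/- cells, by -0.95 in inflamed and -1.14 in control intestine. The multipliers of deposited values differed too, at 1.33 in the multiplied Trem1-/- intestinal samples and 1.333 or 2 in the multiplied WT ones. Assay run and genotype therefore cannot be told apart in the intestine under any scaling.

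**Figure D3:**
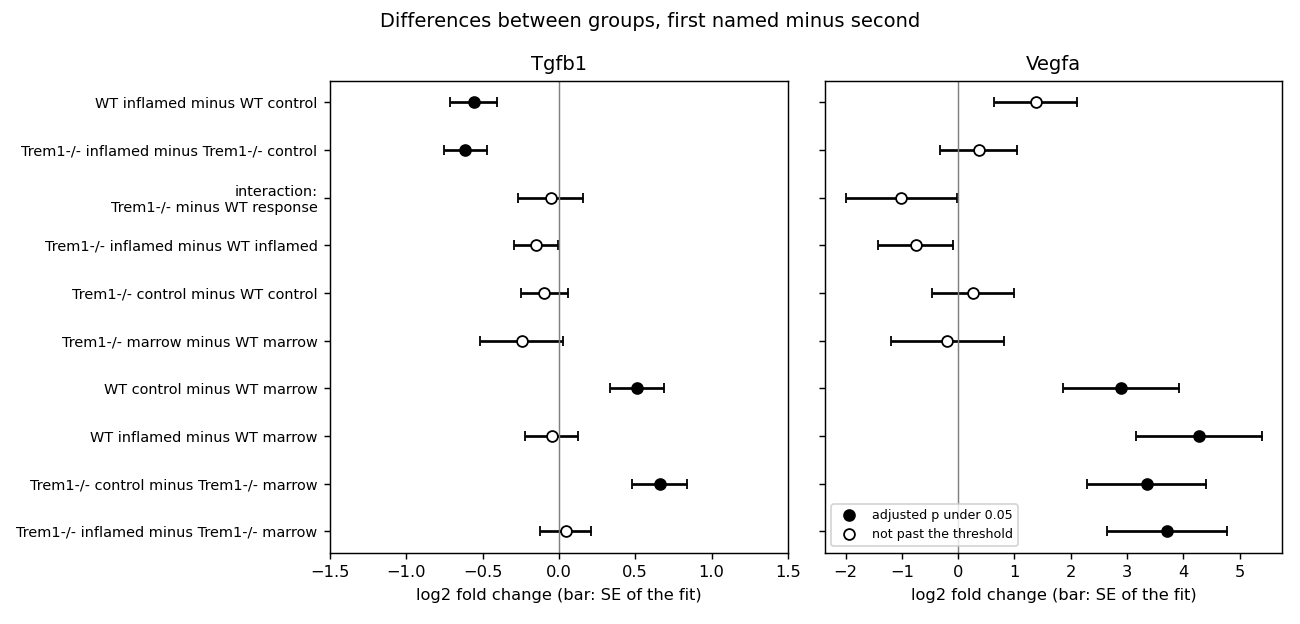
Log2 fold change of Tgfb1 and Vegfa in each comparison (points, bars are the SE of the fit), filled where the adjusted p passed 0.05. Tgfb1 passed for inflamed against control and for control against marrow, Vegfa for all 4 comparisons of intestine with marrow.

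Vegfa was higher in cells recovered from the intestine than in marrow monocytes. In Trem1-/- mice every intestinal sample, at 560 or more, lay above the marrow samples, of which the highest had 425. The inflamed level was 13.1 times that of marrow (log2 fold change 3.71, SE 1.06, edgeR adjusted p = 0.00421, 95% interval 2.88 to 59.6), where 58.2% of genes passed. The control level was 10.2 times (3.35, SE 1.06, adjusted p = 0.0124, interval 2.24 to 46.1), where 34.5% passed. For WT cells the ratio was 19.3 in inflamed intestine (4.27, SE 1.12, adjusted p = 0.00187, interval 3.93 to 95.0), where 49.1% of genes passed. It was 7.45 in control intestine (2.90, SE 1.03, adjusted p = 0.0308, interval 1.71 to 32.5), where 34.5% passed. Of 5 WT inflamed samples 4 lay above all WT marrow samples, as did 4 of 5 WT controls, so the WT groups overlapped, where 41.8% of genes in inflamed and 21.8% in control cells did not. In Trem1-/- mice those shares were 58.2% and 38.2%.

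Marrow Vegfa counts were low, at 44 to 595 against background limits of 34.2 to 59.0, and 5 of 6 samples lay above their limit. The other, Trem1-/- marrow mouse 1, had 44 counts against 44.4, so the size of each ratio to marrow is uncertain. Exact permutation p-values were 0.00833 and 0.0179 for Trem1-/- inflamed and control cells, and 0.0714 and 0.0536 for WT inflamed and control cells. After adjustment over 18 tests they were 0.05, 0.0536, 0.161 and 0.138. The call for WT control cells ended without WT control mouse 3 (2.49), WT marrow mouse 1 (2.48) or WT marrow mouse 3 (2.58). That for Trem1-/- control cells ended without Trem1-/- marrow mouse 1 (2.83) or 2 (3.15). The inflamed calls held without any 1 mouse, at 3.19 to 4.95 in Trem1-/- and 3.83 to 5.51 in WT cells. Leaving out 1 of the marrow mice moved these folds by over 1.5 times: without Trem1-/- marrow mouse 3 the log2 fold change was 4.95 for inflamed and 4.59 for control cells, and without WT marrow mouse 2 it was 5.51 for inflamed and 4.13 for control cells.

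Tgfb1 stood in another order. It was higher in control intestine than in marrow, at 1.58 times in Trem1-/- cells (log2 fold change 0.66, SE 0.18, edgeR adjusted p = 0.00586) and 1.43 times in WT cells (0.51, SE 0.18, adjusted p = 0.0297), with no overlap in either genotype. In each of these comparisons 34.5% of genes passed, and 38.2% in Trem1-/- and 21.8% in WT cells had groups without overlap. The median log2 fold change of all 55 genes was 0.51 in Trem1-/- and 0.61 in WT cells, and Tgfb1 minus that median was 0.15 in Trem1-/- and -0.095 in WT cells. Inflamed cells did not pass against marrow, with ratios of 1.03 in Trem1-/- (adjusted p = 0.818, interval 0.813 to 1.31) and 0.967 in WT cells (adjusted p = 0.807, interval 0.752 to 1.24). With TMM, inflamed cells were called lower than marrow, at -0.63 in Trem1-/- and -0.91 in WT cells. The rise in control intestine depended on scaling too. It did not pass with TMM (0.24 in Trem1-/-, -0.057 in WT), with Actb alone (0.40 and 0.16) or with total counts (0.31 and 0.15). In the authors' values it turned to -0.98 in Trem1-/- (adjusted p = 0.0491) and -0.096 in WT cells. In WT cells it also ended without WT control mouse 3 (0.48), WT marrow mouse 1 (0.43) or WT marrow mouse 3 (0.45).

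By group means, then, the order for Tgfb1 was WT control, Trem1-/- control, WT marrow, WT inflamed, Trem1-/- inflamed and Trem1-/- marrow. Its only neighbours in that order whose samples did not overlap were Trem1-/- control and WT marrow, which were not tested against each other. For Vegfa the order was WT inflamed, Trem1-/- inflamed, Trem1-/- control, WT control, WT marrow and Trem1-/- marrow, and all neighbours overlapped. These orders put the inflamed groups first for Vegfa and the control groups first for Tgfb1.

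The ratio of Vegfa to Tgfb1 is read within a sample and needs no scaling. Per Vegfa count there was a median of 36.5 Tgfb1 counts in Trem1-/- inflamed and 66.5 in Trem1-/- control cells, and 449 in Trem1-/- marrow. In WT the medians were 30.9 in inflamed and 64.8 in control cells, and 631 in marrow. The mean log2 ratio was higher in inflamed than in control intestine by 1.08 in Trem1-/- (exact permutation p = 0.102) and 1.53 in WT cells (p = 0.238). Against marrow it was higher by 4.21 in Trem1-/- inflamed (exact permutation p = 0.00833), 3.13 in Trem1-/- control (p = 0.0357), 4.00 in WT inflamed (p = 0.0714) and 2.47 in WT control cells (p = 0.0536). Adjusted over 9 tests, the lowest of these was 0.075, so none passed.

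The 2 genes lay at opposite ends of the panel in their spread between mice. Around the group means, the pooled SD of log2 levels was 0.156 for Tgfb1, the narrowest of 55 genes, and 1.42 for Vegfa, the 6th widest, with a median of 0.748. This spread includes the difference between multiplied and other samples given below, and the low Vegfa counts in marrow. The part of each in the spread was not tested. Within a group, the highest Tgfb1 sample was 1.13 to 1.49 times the lowest. For Vegfa that factor was 3.95 in Trem1-/- inflamed and 37.4 in WT inflamed cells, the extremes over the 6 groups.

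**Figure D4:**
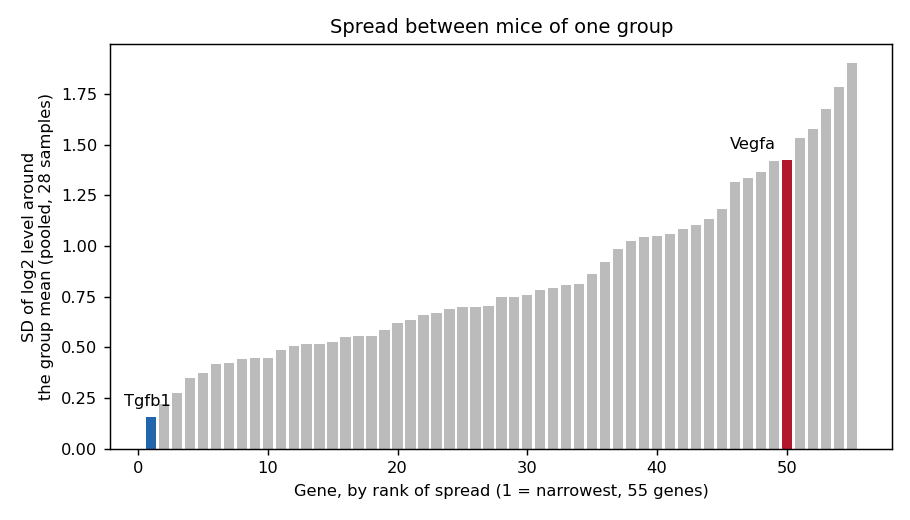
Pooled SD of log2 normalised counts around the group means (bars, 28 samples) for the 55 genes, in order of spread. Tgfb1, at 0.156, is the narrowest bar and Vegfa, at 1.42, the 6th widest.

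Vegfa moved with a mark of the deposited table. In 14 samples the deposited raw values were whole counts multiplied by 1.33, 1.333 or 2, for a reason not given in the sources used here, and these multipliers were divided out. With group taken into account, Vegfa was still higher in the 14 multiplied samples, by 1.65 on the log2 scale (SE 0.40, edgeR adjusted p = 0.00287), where 41.8% of 55 genes passed. The difference had this sign in 6 of 6 groups and was without overlap in 4, both marrow groups among them. Each marrow group held 1 sample without a multiplier and 2 multiplied samples, so a gap there carries little weight. The shares of all 55 genes with such a sign or gap were not computed. In Trem1-/- control cells, the multiplied samples had 1938 and 4536 normalised counts, against 560 to 1520 in the others. In WT control cells they had 2280 and 3311, against 392 to 1715. Tgfb1 differed by -0.14 (SE 0.088, edgeR adjusted p = 0.227), lower in 5 of 6 groups. The classes did not overlap in 4 of these, and in WT marrow Tgfb1 was higher without overlap. With this class as a block, the Vegfa change in inflamed intestine was 0.47 in Trem1-/- (adjusted p = 0.495) and 1.03 in WT cells (adjusted p = 0.16). Within the multiplied samples it was 0.10 in Trem1-/- and 1.17 in WT cells, and within the others 0.69 and 0.66. For Tgfb1 the change within the multiplied samples was -0.62 in Trem1-/- (adjusted p = 0.0549) and -0.68 in WT cells (adjusted p = 0.0383), and within the others -0.60 (adjusted p = 0.00754) and -0.39 (adjusted p = 0.119). All 4 Vegfa calls against marrow held with the block, at 3.36 to 4.50.

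The genes most like each member were taken by Pearson's r of log2 levels over the 28 samples, which share libraries and scaling. Tgfb1 was most like Spi1 (r = 0.68), the gene of the myeloid transcription factor PU.1, Ccl22 (0.60), a chemokine gene, and Irf4 (0.58), a transcription factor gene. Vegfa was most like Cd86 (r = 0.90), a costimulatory receptor gene, and the interleukin 1 genes Il1b (0.84) and Il1a (0.76). Over the 6 group means, these were 0.64, 0.88 and 0.72 for Tgfb1 and 0.99, 0.99 and 0.97 for Vegfa.

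Of the pathways of the 2 factors the panel held little else. Tgfb1 was the only 1 of 15 listed TGF-beta pathway genes on it, and Vegfa the only 1 of 12 listed VEGF and hypoxia genes. Of 12 listed genes of repair and alternative activation, 6 were measured in all samples. In Trem1-/- inflamed against control cells, 3 rose, 1 fell and 2 did not pass, with a median log2 fold change of 1.44 beside 0.097 for all 55 genes, of which 49.1% passed. Arg1, arginase 1, rose by 9.12 (SE 1.23), Il10, an anti-inflammatory cytokine, by 3.80 (SE 0.31) and Mrc1, the mannose receptor, by 2.81 (SE 0.70), while Irf4 had -0.81 (SE 0.30), a call that ended in 5 of 12 fits that left out 1 mouse. Stat6 (-0.32) and Chil3 (0.078) did not pass. In WT cells 2 rose, 1 fell and 3 did not pass, with a median of 0.93 beside -0.076 for all genes, of which 47.3% passed. Arg1 rose by 6.12 (SE 1.09) and Il10 by 2.06 (SE 0.30), Irf4 had -1.07 (SE 0.33), and Mrc1 (1.39), Chil3 (0.48) and Stat6 (-0.48) did not pass.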

How the data were processed

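Gene expression was read on a NanoString nCounter panel in 28 mouse samples; per the labels' protocols, cDNA was pre-amplified with target enrichment primers and hybridised to barcoded probe pairs. The authors deposited raw counts per probe. In 14 samples these were whole counts, and in 14 the deposited raw values, taken here to be expected counts, were whole counts times 1.33 (8 samples), 1.333 (5) or 2 (1). After division, 100% of values were whole (tolerance 0.0001). The authors also deposited normalised values, a score of unstated unit equal to the raw values times 1 factor per sample, 0.407 to 3.12, used only as an alternative. The counting software is not given in the sources used here.

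Counts were scaled by Actb, Gapdh and Rpl19. Genes above background in at least 3 samples (55, or 54 in marrow) were tested with edgeR 4.0.16 in R 4.3.3 (quasi-likelihood, two-sided, Benjamini-Hochberg over all genes tested, threshold 0.05), in fits of 22 intestinal, 6 marrow or, across both, 28 samples. The test was tried on simulated counts. Exact permutation tests went through every arrangement of the samples, in Python 3.11.15 with numpy 2.4.6. Alternatives were other scalings, DESeq2 1.42.0, limma 3.58.1 (log2 of value plus 1), the multiplier class as a block or within class, the replicate block and leaving out each mouse. Those chosen after seeing the data were the single housekeeping genes, background subtraction and the test of the multiplier class itself. Samples are separate mice, per the labels. In marrow, all 3 same-numbered pairs correlated in their deviations from the group means (0.20 to 0.79). Same-numbered marrow mice also shared the multiplier class, and the labels name no pairs. Whether the numbers pair these mice therefore cannot be told, and the number served as a block only in an alternative fit. Named genes are both members, the 3 most like each, and the listed repair genes. The members and lists were chosen with earlier results of these data known. Intervals are 95%, and cover these samples only. Of the panel, 12 targets blank in all samples and 2 blank in some (Trem1 and Retnla) were not analysed here.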

Additional observations from a re-analysis of the deposited data

Results flagged for a closer look

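Among 24 sets of 4 to 10 samples (both genes and the 3 housekeeping genes by group, and ratios), 1 sample stood far from the others. Actb in Trem1-/- inflamed mouse 2 had 123791 normalised counts, while the other 6 samples of that group ran from 108278 to 114666. Actb is 1 of the genes used for scaling, and no Tgfb1 or Vegfa call between inflamed and control intestine changed without this mouse. Chance gives such a sample in about 1 of 20 sets.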

How the results depend on the processing

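Other settings are named by what they scale by or hold, and class 1 means the samples without a multiplier. Both Tgfb1 calls between inflamed and control intestine held in every fit that left out 1 mouse, and the Vegfa calls of inflamed intestine against marrow held in 20 of 20 alternatives and in every such fit. The replicate number, as a block, changed 1 call of the 2 genes. Same-numbered samples outside marrow correlated between -0.66 and 0.59 and were not taken as pairs. Vegfa counts in marrow were low, at 44 to 595 against background limits of 34.2 to 59.0. The alternative of 1 fit of 28 samples is the fit already used against marrow. Class 1 holds 1 marrow mouse per genotype, which gave no value between marrow genotypes and, against marrow, is assumed to vary like the other groups; it is among the 20. Of 21 alternatives between inflamed and control intestine, Irf4 kept its call in 14 in Trem1-/- and 17 in WT cells, Stat6 gained one in 4 in Trem1-/- and 5 in WT cells, and Mrc1 in WT cells in 2. In WT cells Mrc1 was also called without control mouse 2 (1.85), Chil3 without control mouse 1 (0.90) and Stat6 without control mouse 5 (-0.63). The listed repair genes are given next only where they changed sign, while each change of call or sign is given for both members, their ratio, the class effects and the gene counts, in log2 units or counts. The causes were not tested.

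Tgfb1 in WT inflamed minus control lost its call with DESeq2 size factors (-0.67), positive controls (-0.23), Actb with Gapdh (-0.32), the authors' values (-0.0093), class 1 (-0.39) and Actb alone (-0.13). Vegfa in WT inflamed minus control ran from 0.94 to 1.78 with 1 mouse left out. Tgfb1 in Trem1-/- inflamed minus control lost its call with positive controls (-0.031), the multiplied class (-0.62) and Actb alone (-0.096) and changed sign with the authors' values (0.27). Vegfa in Trem1-/- inflamed minus control changed sign with Rpl19 alone (-0.00050). Tgfb1 in the interaction changed sign with TMM (0.077), positive controls (0.20), Actb with Rpl19 (0.0032), the authors' values (0.28), the replicate block (0.0030), the multiplied class (0.060) and Actb alone (0.032) and ran from -0.13 to 0.0091 with 1 mouse left out. Vegfa in the interaction changed sign with class 1 (0.026). Tgfb1 in Trem1-/- inflamed minus WT inflamed gained a call with positive controls (-0.95) and Gapdh alone (-0.44) and changed sign with TMM (0.48), DESeq2 size factors (0.26) and Rpl19 alone (0.00067). Vegfa in Trem1-/- inflamed minus WT inflamed changed sign with class 1 (0.38). Tgfb1 in Trem1-/- control minus WT control gained a call with positive controls (-1.14) and changed sign with TMM (0.40), DESeq2 size factors (0.39), total counts (0.19) and Rpl19 alone (0.039). Vegfa in Trem1-/- control minus WT control changed sign with positive controls (-0.71) and the authors' values (-0.33) and ran from -0.28 to 0.66 with 1 mouse left out. Tgfb1 in Trem1-/- marrow minus WT marrow changed sign with TMM (0.13), DESeq2 size factors (0.074), total counts (0.034) and the authors' values (0.12). Vegfa in Trem1-/- marrow minus WT marrow changed sign with TMM (0.38), DESeq2 size factors (0.18) and total counts (0.33) and ran from -1.43 to 1.05 with 1 mouse left out. Tgfb1 in WT control minus marrow lost its call with total counts (0.15), positive controls (0.20), Actb with Gapdh (0.21), class 1 (0.69), the multiplied class (0.42), Actb alone (0.16) and Gapdh alone (0.26), changed sign with TMM (-0.057), DESeq2 size factors (-0.32) and the authors' values (-0.096) and ran from 0.43 to 0.66 with 1 mouse left out. Vegfa in WT control minus marrow lost its call with positive controls (2.88), the authors' values (2.37), the replicate block (2.39) and class 1 (3.64) and ran from 2.48 to 4.13 with 1 mouse left out. Tgfb1 in WT inflamed minus marrow gained a call with TMM (-0.91), DESeq2 size factors (-1.04) and total counts (-0.60), changed sign with Actb with Rpl19 (0.036), class 1 (0.30) and Actb alone (0.028) and ran from -0.13 to 0.097 with 1 mouse left out. Tgfb1 in Trem1-/- control minus marrow lost its call with TMM (0.24), DESeq2 size factors (0.031), total counts (0.31), Actb with Gapdh (0.43), class 1 (0.65), the multiplied class (0.58), Actb alone (0.40) and Gapdh alone (0.46) and changed sign with positive controls (-0.35) and the authors' values (-0.98). With the authors' values it was called lower than marrow. Vegfa in Trem1-/- control minus marrow lost its call with positive controls (2.50) and the authors' values (2.15) and ran from 2.80 to 4.59 with 1 mouse left out. Tgfb1 in Trem1-/- inflamed minus marrow changed sign with TMM (-0.63), DESeq2 size factors (-0.82), total counts (-0.67), positive controls (-0.38), Gapdh with Rpl19 (-0.082), the authors' values (-0.71), the multiplied class (-0.034) and Gapdh alone (-0.24). Of its 20 alternatives 3 gained a call, each as lower than marrow, TMM among them. Irf4 in Trem1-/- inflamed minus control changed sign with the authors' values (0.028). Mrc1 in WT inflamed minus control changed sign with class 1 (-0.86). Chil3 in WT inflamed minus control changed sign with TMM (-0.096). Chil3 in Trem1-/- inflamed minus control changed sign with TMM (-0.37), DESeq2 size factors (-0.21), total counts (-0.29), Gapdh with Rpl19 (-0.19), class 1 (-0.27) and Rpl19 alone (-0.41) and ran from -0.0020 to 0.30 with 1 mouse left out. Stat6 in WT inflamed minus control changed sign with the authors' values (0.11). Stat6 in Trem1-/- inflamed minus control changed sign with positive controls (0.23), the authors' values (0.56) and Actb alone (0.19). In WT inflamed minus control, the number of genes past the threshold was 17 with positive controls. In the interaction, the number of genes past the threshold was 0 with DESeq2 size factors, the authors' values and the multiplied class, 1 with positive controls, the replicate block and Rpl19 alone, 4 with the DESeq2 test and the class block and 16 with class 1 and ran from 1 to 4 with 1 mouse left out. In Trem1-/- inflamed minus WT inflamed, the number of genes past the threshold was 9 with TMM, 28 with Gapdh alone and 29 with positive controls. In Trem1-/- control minus WT control, the number of genes past the threshold was 0 with TMM, DESeq2 size factors, total counts and Rpl19 alone, 1 with the replicate block, 4 with Actb with Gapdh, 6 with the class block, 11 with class 1 and Gapdh alone, 12 with the authors' values, 13 with the DESeq2 test and 29 with positive controls and ran from 1 to 6 with 1 mouse left out. In Trem1-/- marrow minus WT marrow, the number of genes past the threshold was 1 with Actb with Gapdh, 1 fit of 28 samples, Actb alone and Gapdh alone and 2 with positive controls, the DESeq2 test and Rpl19 alone and ran from 0 to 2 with 1 mouse left out. In WT control minus marrow, the number of genes past the threshold was 8 with the authors' values, 11 with positive controls and 12 with class 1 and ran from 12 to 24 with 1 mouse left out. In Trem1-/- control minus marrow, the number of genes past the threshold was 12 with class 1. The Vegfa to Tgfb1 ratio in Trem1-/- inflamed minus WT inflamed changed sign with class 1 (1.34) and ran from -0.92 to 0.47 with 1 mouse left out. The Vegfa to Tgfb1 ratio in Trem1-/- control minus WT control ran from -0.015 to 0.86 with 1 mouse left out. The Vegfa to Tgfb1 ratio in Trem1-/- marrow minus WT marrow changed sign with the multiplied class (0.40) and ran from -1.16 to 0.87 with 1 mouse left out. The class effect on Tgfb1 gained a call with TMM (-0.46) and DESeq2 size factors (-0.63) and changed sign with positive controls (0.14) and marrow samples only (0.056). The class effect on Vegfa lost its call with the authors' factors (1.49) and marrow samples only (2.63).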
